A study of Mus musculus with 24 samples.

Results

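The 8 core and formative pluripotency genes described here are Pou5f1, Sall4, Utf1, Dppa4, Lin28a, Lin28b, Fgf5 and Pou3f1. They were taken by gene symbol from the expression table of a mouse RNA-seq series, in which 21553 genes had counts and 16627 passed the filter on low counts. All 8 passed it. Each of the 8 had 1 row in the table.

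The series compared wild-type (WT) cells with cells homozygous for R749H in Polr2a, the gene of the largest subunit of RNA polymerase II (RNAPII), a substitution that slows elongation (slow/slow cells). Poly-A selected RNA was measured at 4 stages: embryonic stem cells (ESCs) grown in 2i/LIF medium on gelatin, neural progenitor cells (NPCs) at day 7 in N2B27 medium, PSA-NCAM+ cells isolated with beads after 10 days, and neurons grown for 14 days after replating at day 7. Each stage and genotype had 3 samples, so 24 libraries fell into 8 groups, and the study's methods give the differentiations as independent. The slow/slow cells came from an E14 ESC line targeted in both alleles, a single line of each genotype was used, and WT cells were plated at 10000 cells per cm2 for NPCs and PSA-NCAM+ cells against 30000 for slow/slow cells. Genotype, line and plating density therefore cannot be told apart.

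Mouse ESCs in 2i/LIF are held in the naive state of pluripotency, in which Pou5f1 works with Nanog, Klf and Esrrb factors. Cells that leave it pass through a formative state, in which naive factors fall while Pou5f1 is kept and Fgf5, Pou3f1, Utf1 and the Lin28 genes come up. Pluripotency genes are later shut off as neural fates are taken, and the Lin28 proteins act against the let-7 family of microRNAs on the way.

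Libraries held 32974432 to 104466886 counts. The first PSA-NCAM+ libraries of both genotypes stood apart: on log2 CPM (counts scaled to library size) they correlated at 0.964 to 0.982 with the other libraries of their group, against at least 0.997 for every other pair of replicates, so results at that stage are also given without both. Markers of other states moved with stage and genotype. The summed level of 4 naive markers (Nanog, Esrrb, Zfp42 and Klf4) lay between 3350 and 3762 CPM in ESCs, 1250 and 1309 in WT NPCs, 398 and 443 in slow/slow NPCs, 899.8 and 1275 in WT PSA-NCAM+ cells, 315 and 523 in slow/slow PSA-NCAM+ cells, and 25.01 and 43.9 in neurons, with no marker at 0 in a whole group. Of 5 neural progenitor markers 4 were found, and their sum was 37.5 to 38.9 CPM in WT NPCs, 124 to 166 in slow/slow NPCs and 885 to 1249 in neurons. The sum in WT cells labelled NPCs was thus below that in slow/slow NPCs and in neurons. Nes made up most of it, at 33.1 CPM (18.7 in WT ESCs), and Pax6 stood at 4.297 CPM (0.187 in WT ESCs). Hes5 at 0.361 and Fabp7 at 0.242 CPM were lowest (0.105 and 0.207 in WT ESCs). The 5 endoderm markers (Sox17, Gata4, Gata6, Foxa2 and Afp) summed to 123 to 142 CPM in WT NPCs and 115 to 148 in slow/slow NPCs. Their sum was 12.2 to 13.7 CPM in WT ESCs and 12.2 to 12.8 in slow/slow ESCs. It was 88.5 to 136 CPM in WT and 53.8 to 131 in slow/slow PSA-NCAM+ cells. In WT NPCs it was thus above the neural progenitor sum. The paper reports Sox1, Pax6 and Nestin in NPCs of both genotypes. The 3 PSA-NCAM markers (Ncam1, St8sia2 and St8sia4) summed to 26.67 to 31.13 CPM in WT and 36.77 to 61.88 in slow/slow PSA-NCAM+ cells. Their sum was 16.17 to 18.05 CPM in WT ESCs and 24.93 to 27.13 in slow/slow ESCs. It was 12.96 to 14.35 CPM in WT NPCs and 20.03 to 26.52 in slow/slow NPCs. Neurons held 714.7 to 744.6 CPM in WT and 395.4 to 418.2 in slow/slow libraries. In WT PSA-NCAM+ cells the sum thus exceeded WT NPCs, overlapped slow/slow ESCs and was far below neurons. The part of these cell-state differences in the results that follow was not tested. In bulk RNA, fewer cells of a type and less RNA per cell cannot be told apart.

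Levels are given as CPM scaled by TMM (trimmed mean of M values) and differences as log2 changes with their standard error (SE). The FDR is the Benjamini-Hochberg adjusted p of edgeR's quasi-likelihood F test over all 16627 genes, and a change was called at an FDR under 0.05.

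Slow/slow ESCs had higher levels of 5 of the 8 genes: Lin28b, Lin28a, Utf1, Pou3f1 and Dppa4. In slow/slow NPCs, Lin28b, Fgf5, Lin28a and Pou3f1 were higher and Utf1 lower, and the same 5 genes and Sall4 passed the test in PSA-NCAM+ cells. In neurons the direction turned for Lin28a, Sall4 and Fgf5, which were lower in slow/slow cells, as was Pou5f1, and Lin28b was higher. The calls on Fgf5 and Lin28b in neurons were lost when some single libraries were left out. The plot of CPM by library shows all 8 genes at the 4 stages, and the plot of genotype differences shows the 4 log2 changes of each.

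**Figure D1:**
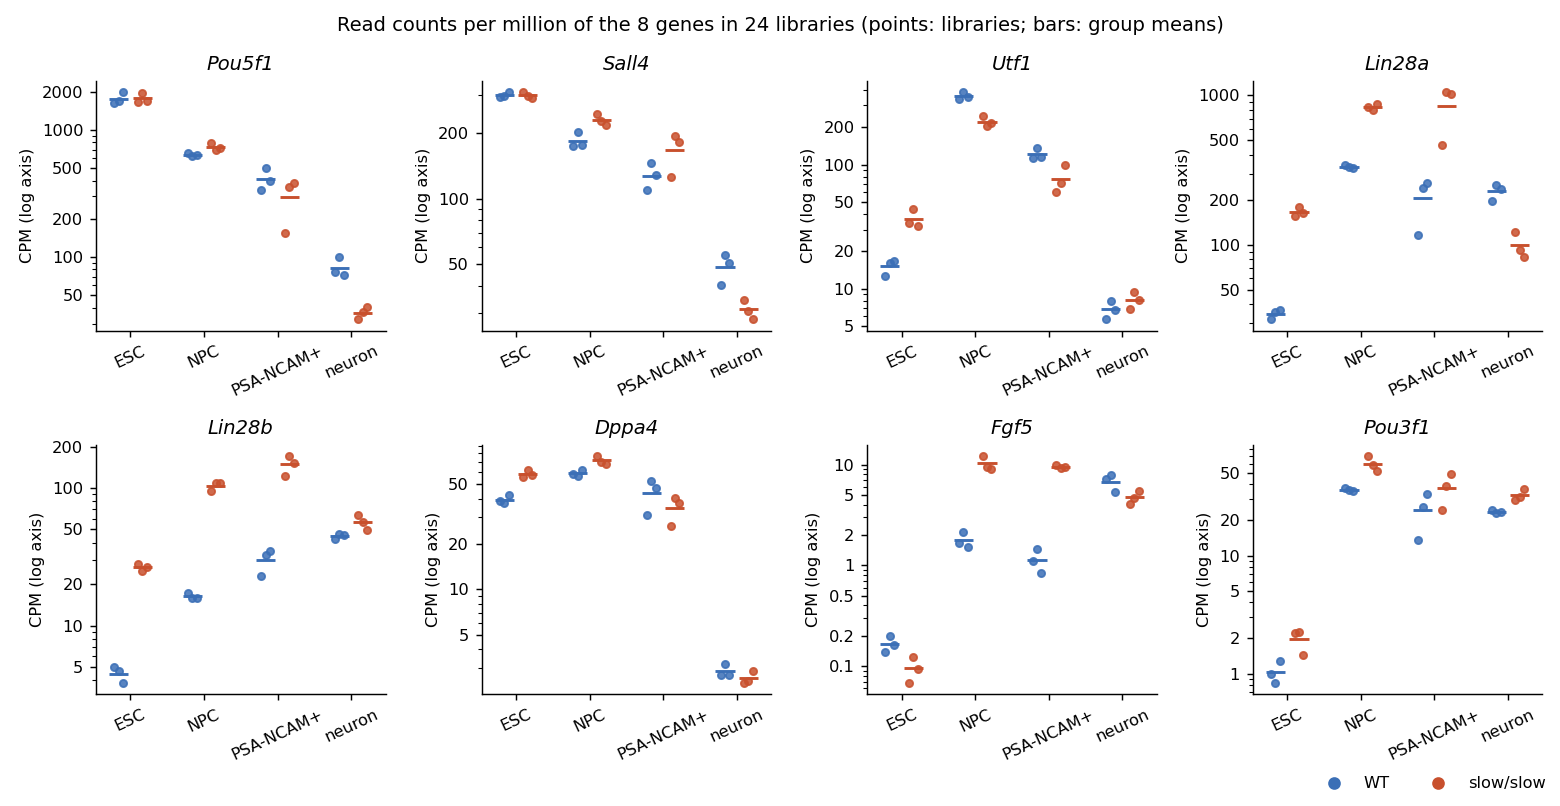
CPM (log axis) of the 8 genes in every library at the 4 stages, 1 panel a gene, with points for libraries and short bars for group means of 3 libraries (WT and slow/slow). Pou5f1 and Sall4 were highest in ESCs, Utf1 peaked in WT NPCs at a mean of 358 CPM, and Lin28b, Fgf5 and Pou3f1 were lowest in ESCs.

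**Figure D2:**
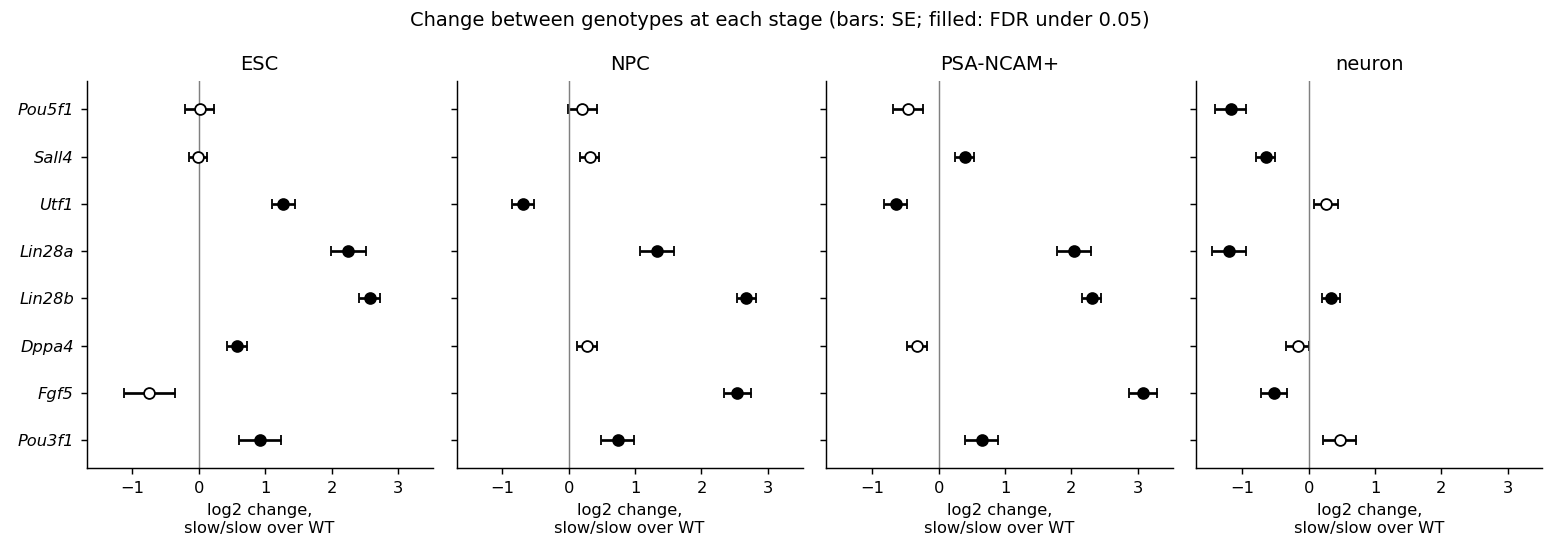
Log2 change of slow/slow over WT (± SE from the model of all 8 groups, n = 3 libraries a group) for the 8 genes at each stage, with filled points where the edgeR FDR was under 0.05. Lin28a stood at 2.25 in ESCs and at -1.20 in neurons, and Pou5f1 and Sall4 lay near 0 in ESCs and below it in neurons.

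Against all genes tested, the counts were as follows. In ESCs 5 genes were called higher and 0 lower, where 18.5% of all genes were called higher and 21.9% lower, and the groups did not overlap for 6 of the 8, against 59.8% of all genes. In NPCs 4 were higher and 1 lower, where 29.3% and 27.4% of all genes were, and none of the 8 overlapped, against 74.7%. In PSA-NCAM+ cells 5 were higher and 1 lower, where 28.6% and 28.1% of all genes were, and 4 of the 8 did not overlap, against 43.1%. Without the first PSA-NCAM+ libraries 5 were higher and 2 lower, where 68.0% of all genes were called, and the 2 remaining libraries of each genotype did not overlap for any of the 8, against 79.6% of all genes. In neurons 1 was higher and 4 lower, where 23.4% and 28.4% of all genes were, and 5 did not overlap, against 75.6%. The median log2 change of the 8 genes was 0.75 at the ESC stage, 0.52 at both the NPC and the PSA-NCAM+ stage and -0.34 in neurons, beside medians over all genes of -0.02, 0.01, -0.01 and -0.06. The share of the 8 genes called was thus not far above the background in NPCs, PSA-NCAM+ cells and neurons.

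Pou5f1 encodes Oct4, the POU-domain transcription factor that pluripotent cells depend on. The gene lies on chromosome 17 from 35506018 to 35510772, plus strand (GRCm38). It had the highest level of the 8 genes in ESCs per length as well, with an authors' mean of 1251 RPKM in WT ESCs beside 55.0 for Sall4 and 43.5 for Dppa4. Pou5f1 measured 1617, 1692 and 1972 CPM in the WT ESC libraries and 1662, 1966 and 1702 CPM in the slow/slow ESC libraries. The groups overlapped fully, and the log2 change was 0.01 ± 0.22 (SE, edgeR FDR = 0.981).

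With differentiation Pou5f1 fell at each step in both genotypes. WT NPCs held 659.7, 619.8 and 637 CPM and slow/slow NPCs 791, 701 and 716 CPM, with every slow/slow library above every WT library, but the log2 change of 0.20 ± 0.22 was not called (edgeR FDR = 0.449). A fit of only these 2 groups called it (edgeR FDR = 0.0100). In PSA-NCAM+ cells the values were 337, 504 and 396 CPM in WT and 155, 358 and 385 CPM in slow/slow libraries. The groups overlapped, and the first slow/slow library was the lowest. The log2 change there was -0.46 ± 0.22 (edgeR FDR = 0.0826), -0.28 without the first libraries (edgeR FDR = 0.0650) and -0.55 with the replicate number as a block among PSA-NCAM+ libraries (edgeR FDR = 0.00231).

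Neurons still held a mean of 82.8 ± 15.0 CPM (SD, n = 3) of Pou5f1 in WT libraries, 4.66% of the highest group mean. The 3 WT neuron libraries measured 76.6, 99.9 and 72.0 CPM and the 3 slow/slow neuron libraries 32.5, 37.0 and 40.6 CPM. The groups were apart, and Pou5f1 was lower by a log2 change of -1.18 ± 0.23 in slow/slow neurons (edgeR FDR = 0.000214). The same direction held for Sall4 in neurons, while the summed naive markers there were higher in slow/slow than in WT libraries (34.97 to 43.9 against 25.01 to 27.2 CPM).

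Sall4 encodes a zinc finger protein that acts with Oct4 and Nanog in ESCs (chromosome 2, 168748332 to 168767943, minus strand, GRCm38). Its ESC libraries were close together, at 294, 297 and 307 CPM in WT and 307, 295 and 291 CPM in slow/slow cells, and the log2 change was -0.01 ± 0.14 (edgeR FDR = 0.984). WT NPCs had 175, 203 and 176 CPM and slow/slow NPCs 245, 226 and 217 CPM. The groups did not overlap, but the log2 change of 0.31 ± 0.14 missed the threshold (edgeR FDR = 0.0573, and 0.0391 without the second WT NPC library). A fit of only these 2 groups called it (edgeR FDR = 0.000778). In PSA-NCAM+ cells Sall4 measured 110.0, 145 and 128 CPM in WT and 125, 194 and 183 CPM in slow/slow libraries, a log2 change of 0.39 ± 0.14 (edgeR FDR = 0.0205).

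That call on Sall4 at the PSA-NCAM+ stage depended on the libraries. The FDR was 0.104 without the first WT library, 0.0914 without the second slow/slow library and 0.0553 without the third, whereas without both first libraries the groups separated and it was 0.000567. A fit of only these 2 groups did not call it (edgeR FDR = 0.218). In neurons Sall4 measured 40.1, 55.2 and 50.8 CPM in WT and 34.5, 30.7 and 28.0 CPM in slow/slow libraries. Every slow/slow neuron library was below every WT one, with a log2 change of -0.65 ± 0.14 (edgeR FDR = 0.000625).

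The other SALL genes are developmental zinc finger factors of the same family. Of the 3 listed (Sall1, Sall2 and Sall3) 1 was higher in slow/slow ESCs, 2 in NPCs, 3 in PSA-NCAM+ cells, with and without the first libraries, and 1 in neurons, and none was lower. Sall2 rose from 30.8 ± 1.05 CPM in WT NPCs to 190 ± 8.55 CPM in slow/slow NPCs (SD, n = 3; log2 change 2.63 ± 0.21, edgeR FDR = 4.91e-09). Sall3 rose from 3.17 ± 0.56 to 35.5 ± 3.36 CPM there (log2 change 3.48 ± 0.37, edgeR FDR = 2.45e-07). In neurons Sall1 was higher by 0.93 ± 0.09 (edgeR FDR = 3.24e-08) where Sall4 was lower.

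Utf1 encodes a chromatin-associated protein of undifferentiated cells, from a compact gene of 1324 bp on chromosome 7 (139943789 to 139945112, plus strand, GRCm38). Unlike Pou5f1 and Sall4 it was low in ESCs and peaked in NPCs. WT ESC libraries held 12.7, 16.1 and 16.6 CPM and slow/slow ESC libraries 34.1, 43.6 and 31.7 CPM. All slow/slow libraries were above all WT ones, and the log2 change was 1.27 ± 0.17 (edgeR FDR = 7.91e-06).

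In NPCs the order was the opposite. Utf1 measured 340.2, 383 and 352 CPM in WT and 248, 204 and 215 CPM in slow/slow libraries, with no overlap and a log2 change of -0.69 ± 0.17 (edgeR FDR = 0.00165). PSA-NCAM+ cells kept it, at 112, 136 and 115 CPM in WT and 60.0, 71.7 and 99.6 CPM in slow/slow libraries (log2 change -0.65 ± 0.17, edgeR FDR = 0.00259; -0.55 without the first libraries, edgeR FDR = 0.00338; -0.67 with only these 2 groups in the fit, edgeR FDR = 0.0527). The genotype difference of Utf1 itself changed between ESCs and NPCs, by -1.96 ± 0.24 on the log2 scale (edgeR FDR = 8.36e-06). In neurons it was at 5.66, 7.99 and 6.78 CPM in WT and 6.90, 9.45 and 8.09 CPM in slow/slow libraries, which overlapped (log2 change 0.26 ± 0.18, edgeR FDR = 0.23).

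Dppa4 encodes a DNA-binding protein with a SAP domain that works with Dppa2 in pluripotent cells (chromosome 16, 48283733 to 48294237, plus strand, GRCm38). It measured 38.3, 37.5 and 42.0 CPM in WT ESCs and 55.4, 62.1 and 57.6 CPM in slow/slow ESCs. The groups were apart, with a log2 change of 0.57 ± 0.15 (edgeR FDR = 0.00518). In NPCs the means were 59.1 ± 3.14 and 71.7 ± 4.62 CPM (SD, n = 3), apart but not called (log2 change 0.28 ± 0.15, edgeR FDR = 0.122, and 0.00137 with only these 2 groups in the fit). By the neuron stage it had dropped to 2.69, 3.19 and 2.70 CPM in WT and 2.38, 2.45 and 2.88 CPM in slow/slow libraries, the lowest share of its peak of any stage.

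In PSA-NCAM+ cells the Dppa4 comparison turned on the first libraries. Levels were 31.2, 52.1 and 47.0 CPM in WT and 26.2, 40.2 and 37.4 CPM in slow/slow libraries, so the groups overlapped through the first WT library. The log2 change was -0.33 ± 0.15 (edgeR FDR = 0.0743), -0.35 without both first libraries (edgeR FDR = 0.00121), -0.52 without the first WT library alone (edgeR FDR = 0.00267) and -0.42 without the second slow/slow library (edgeR FDR = 0.0397). With the replicate block among PSA-NCAM+ libraries it was -0.32 (edgeR FDR = 0.000746).

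Lin28a and Lin28b encode related RNA-binding proteins that keep let-7 precursors from maturing, and let-7 in turn represses both mRNAs. Lin28a lies on chromosome 4 (134003330 to 134018841, minus strand) and Lin28b on chromosome 10 (45376620 to 45486395, minus strand, GRCm38), where Lin28b spans 109776 bp, beside a median of 23164 bp over the genes tested. The let-7 seed (bases 2 to 8) is shown because its match marks these genes among the 8. The mature sequence (RefSeq), with the seed in capitals, and the sites in the 3′ UTRs of the mRNAs (GRCm38, GENCODE vM21, minus strand, 5′ to 3′), with the match CTACCTC in capitals, read:
mmu-let-7a-5p: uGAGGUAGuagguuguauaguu
Lin28a site 1, chr4:134005182-134005211: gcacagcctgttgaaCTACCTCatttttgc
Lin28a site 2, chr4:134004544-134004573: gagatcgccacaaacCTACCTCactgtgtt
Lin28b site 1, chr10:45381015-45381044: acccgggcgggaagtCTACCTCatgcaagc
Lin28b site 2, chr10:45378641-45378670: tatacttgttagtaaCTACCTCtgagtttg
Lin28b site 3, chr10:45378469-45378498: gtttacagcacatggCTACCTCccagctac
Lin28b site 4, chr10:45377053-45377082: aaatgatggcaccgaCTACCTCttcaatca
Sall4 site 1, chr2:168748933-168748962: agggctttaatttatCTACCTCaattatct

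Lin28b thus held 4 matches, Lin28a 2 and Sall4 1, and the annotated 3′ UTRs of the other 5 genes held none. At least 1 match was found in 22.2% of 3′ UTRs within 10% of the length of that of Lin28b, in 13.7% for Lin28a and in 10.7% for Sall4, and in 8% of all 20639 3′ UTRs. A match is a description of the letters, and microRNAs were not measured in these poly-A libraries.

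Lin28a was higher in slow/slow cells up to the PSA-NCAM+ stage and lower in slow/slow neurons. It measured 31.8, 35.7 and 36.8 CPM in WT ESCs and 155, 179.9 and 162 CPM in slow/slow ESCs, a log2 change of 2.25 ± 0.26 (edgeR FDR = 1.18e-06). In NPCs it measured 339.6, 334 and 327 CPM in WT and 839, 800.1 and 878 CPM in slow/slow libraries (log2 change 1.33 ± 0.25, edgeR FDR = 0.00019). All slow/slow libraries were above all WT libraries at both stages.

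In PSA-NCAM+ cells the first library of each genotype was the lowest for Lin28a, at 117 CPM against 240.4 and 259.9 in WT and at 467 CPM against 1046 and 1017 in slow/slow cells. The log2 change was 2.04 ± 0.26 (edgeR FDR = 1.81e-06), and the means of the other libraries were 250.1 and 1032 CPM. Neurons turned the order: WT libraries held 198, 250.3 and 238 CPM and slow/slow libraries 123, 92.9 and 83.1 CPM. Lin28a was lower there in every slow/slow library, by a log2 change of -1.20 ± 0.25 (edgeR FDR = 0.000547).

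Lin28b was also far higher in slow/slow cells before the neuron stage. It measured 4.97, 4.65 and 3.83 CPM in WT ESCs against 28.0, 25.1 and 26.8 CPM in the slow/slow ones (log2 change 2.57 ± 0.15, edgeR FDR = 1.76e-10). NPCs gave 17.2, 15.8 and 15.9 CPM in WT and 94.4, 109 and 109 CPM in slow/slow libraries (log2 change 2.68 ± 0.15, edgeR FDR = 4.45e-11). PSA-NCAM+ cells gave 22.8, 32.7 and 34.7 CPM against 122, 171 and 152 CPM (log2 change 2.30 ± 0.14, edgeR FDR = 1.74e-10). At these 3 stages no WT library reached a slow/slow library.

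In neurons Lin28b had 42.3, 46.1 and 45.8 CPM in WT and 63.4, 56.2 and 49.8 CPM in slow/slow libraries. The groups did not overlap, and the log2 change was 0.34 ± 0.14 (edgeR FDR = 0.0466). That call was lost without any 1 of the 3 WT libraries or of the first and second slow/slow libraries (edgeR FDR from 0.0799 to 0.219), and was kept without the third slow/slow library (edgeR FDR = 0.0361). So where Lin28a in slow/slow neurons lay below its WT level, Lin28b did not. Lin28b in slow/slow neurons was lower than in slow/slow NPCs (log2 change -0.88 ± 0.14, edgeR FDR = 8.72e-06) and in WT neurons higher than in WT NPCs (1.46 ± 0.14, edgeR FDR = 7.72e-09).

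Per length, Lin28a was the more abundant of the pair in all 8 groups. In the authors' mean RPKM, Lin28a stood at 9.28 and Lin28b at 0.773 in WT ESCs, at 101 and 3.18 in WT NPCs, and at 66.0 and 8.34 in WT neurons. The authors' mean RPKM ratio of Lin28a to Lin28b was 31.6 in WT NPCs and 12.5 in slow/slow NPCs, and 7.92 in WT neurons and 2.73 in slow/slow neurons. In CPM, the ratio per library was 20.5 ± 0.738 (SD, n = 3) in WT NPCs against 8.09 ± 0.778 in slow/slow NPCs, and 5.10 ± 0.383 in WT neurons against 1.75 ± 0.157 in slow/slow neurons. The ranges of these ratios were apart in NPCs and neurons and overlapped in ESCs and PSA-NCAM+ cells.

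**Figure D3:**
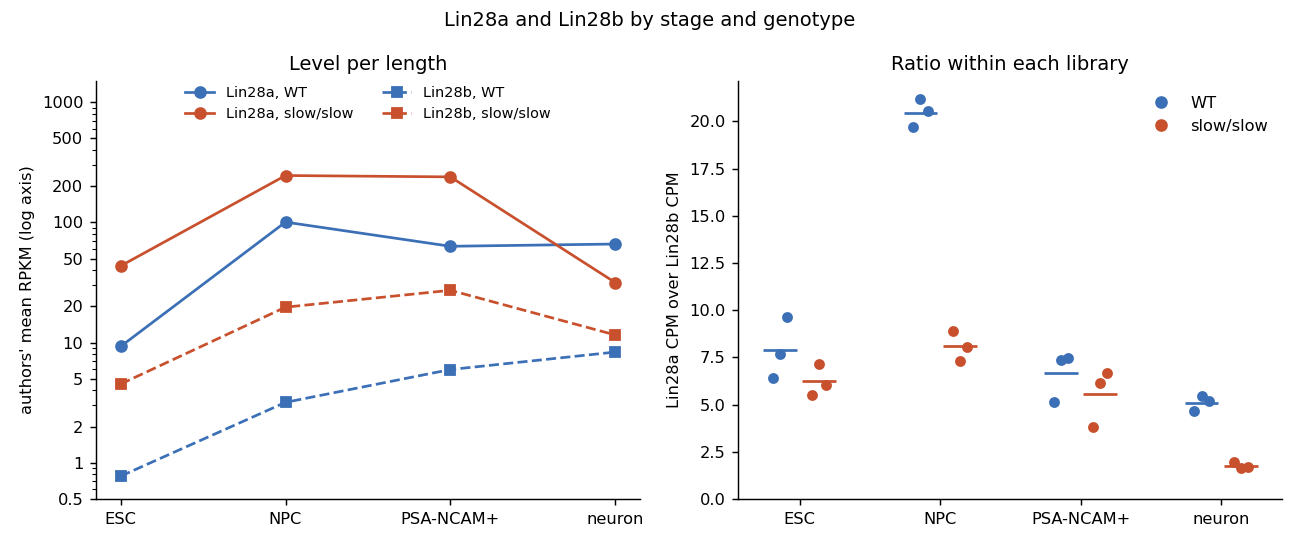
Left, authors' mean RPKM (log axis) of Lin28a and Lin28b at each stage and genotype; right, the ratio of Lin28a to Lin28b CPM in each library, with points for libraries. The ratio was highest in WT NPCs, at a mean of 20.5, and lowest in slow/slow neurons, at a mean of 1.75.

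Of 13 other genes of the Lin28 and let-7 axis (let-7 targets, and enzymes that make or destroy let-7), 2 were higher and 3 lower in slow/slow ESCs, 4 and 4 in NPCs, 5 and 1 in PSA-NCAM+ cells (5 and 2 without the first libraries), and 3 and 2 in neurons. Their median log2 changes were -0.01, 0.18, 0.12 and -0.05. Hmga2, a chromatin protein and let-7 target, averaged 73.3 ± 3.9 CPM in WT ESCs against 31.0 ± 0.886 CPM in slow/slow ESCs (SD, n = 3; log2 change -1.24 ± 0.25, edgeR FDR = 0.000533), but 44.5 ± 4.0 against 119 ± 19.5 CPM in NPCs (log2 change 1.42 ± 0.25, edgeR FDR = 8.2e-05). Igf2bp3, an RNA-binding protein, rose in slow/slow PSA-NCAM+ cells (log2 change 1.66 ± 0.09, edgeR FDR = 2.27e-11) and in neurons (1.11 ± 0.09, edgeR FDR = 3.09e-09). Arid3a, a let-7 target that binds DNA, was lower in slow/slow NPCs (log2 change -1.29 ± 0.20, edgeR FDR = 1.88e-05).

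Fgf5 encodes a secreted growth factor that marks the epiblast once it has left the naive state (chromosome 5, 98254184 to 98277030, plus strand, GRCm38). It was close to absent from ESCs, at 0.137, 0.201 and 0.162 CPM in WT and 0.0678, 0.123 and 0.0929 CPM in slow/slow libraries. These stand for 9, 7 and 9 counts and for 3, 6 and 3 counts, and the log2 change of -0.75 ± 0.38 was not called (edgeR FDR = 0.228). In NPCs it measured 1.68, 2.13 and 1.51 CPM in WT and 12.2, 9.59 and 9.12 CPM in slow/slow libraries (log2 change 2.54 ± 0.20, edgeR FDR = 5.61e-09).

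Fgf5 kept that gap in PSA-NCAM+ cells, at 1.11, 1.46 and 0.847 CPM in WT and 9.90, 9.26 and 9.59 CPM in slow/slow libraries. The groups were far apart, with the largest genotype difference of any of the 8 genes at any stage (log2 change 3.08 ± 0.21, edgeR FDR = 5.16e-10). In neurons WT libraries had 7.17, 7.85 and 5.32 CPM and slow/slow libraries 4.10, 4.66 and 5.45 CPM. They overlapped, and the log2 change of -0.52 ± 0.19 was called (edgeR FDR = 0.0284), but not without the first or second WT library (edgeR FDR = 0.0742 and 0.125) or the first or second slow/slow library (0.112 and 0.0695). WT cells thus reached their highest Fgf5 level in neurons. In slow/slow cells NPCs (10.3 ± 1.67 CPM) and PSA-NCAM+ cells (9.58 ± 0.323 CPM; SD, n = 3) overlapped (log2 change -0.11 ± 0.19, edgeR FDR = 0.672).

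Pou3f1 encodes Oct6, a POU-domain factor of the late epiblast and of neural and glial progenitors. Its position was matched by symbol (chromosome 4, 124656807 to 124660655, plus strand, GRCm38), since the table's identifier was a different one from that of the annotation. It measured 0.987, 0.832 and 1.28 CPM in WT ESCs and 2.22, 2.23 and 1.42 CPM in slow/slow ESCs. The groups were apart by a small margin (log2 change 0.92 ± 0.32, edgeR FDR = 0.0259), and the call was lost without the first or second WT library (edgeR FDR = 0.0716 and 0.0765) or the first or second slow/slow library (0.0763 and 0.0849).

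Pou3f1 came up strongly in NPCs of both genotypes. WT NPCs had 37.5, 35.6 and 35.4 CPM and slow/slow NPCs 69.7, 58.4 and 52.4 CPM, all higher (log2 change 0.74 ± 0.25, edgeR FDR = 0.0162, and 0.0649 without the first slow/slow library). PSA-NCAM+ cells had 13.5, 25.9 and 32.9 CPM in WT and 24.3, 39.1 and 49.5 CPM in slow/slow libraries, which overlapped (log2 change 0.65 ± 0.25, edgeR FDR = 0.0323). Without both first libraries the groups separated and the FDR was 0.000588, whereas without the first WT library alone it was 0.171, without the second slow/slow library 0.0625 and without the third 0.168. A fit of only these 2 groups did not call it (edgeR FDR = 0.281). Neurons held 24.1, 22.9 and 23.4 CPM in WT and 29.6, 31.3 and 36.5 CPM in slow/slow libraries, apart but not called (log2 change 0.47 ± 0.25, edgeR FDR = 0.122, and 9.37e-05 with only these 2 groups in the fit).

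The promoters of 5 of the 8 genes were in the RefSeq table, and Sall4, Dppa4 and Pou3f1 were not. Those of Lin28a, Lin28b and Fgf5, genes that were higher together in slow/slow NPCs and PSA-NCAM+ cells, are shown from 250 bases before to 50 bases after the start (GRCm38.p6, 5′ to 3′ on the strand of the gene), with the GC box GGGCGG or its reverse CCGCCC in capitals:
Lin28a promoter, chr4:134018767-134019066 (minus strand): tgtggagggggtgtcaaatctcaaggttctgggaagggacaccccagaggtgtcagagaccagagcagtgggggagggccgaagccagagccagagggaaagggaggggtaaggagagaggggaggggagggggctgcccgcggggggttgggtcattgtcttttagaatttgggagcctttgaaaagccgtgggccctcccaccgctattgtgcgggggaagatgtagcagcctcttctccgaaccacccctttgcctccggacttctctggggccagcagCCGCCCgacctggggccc
Fgf5 promoter, chr5:98253934-98254233 (plus strand): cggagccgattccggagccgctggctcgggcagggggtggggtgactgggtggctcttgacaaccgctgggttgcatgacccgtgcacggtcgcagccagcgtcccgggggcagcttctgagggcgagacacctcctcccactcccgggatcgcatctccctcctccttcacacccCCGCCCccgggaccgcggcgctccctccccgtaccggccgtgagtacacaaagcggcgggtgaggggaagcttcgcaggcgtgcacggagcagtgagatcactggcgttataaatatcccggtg
Lin28b promoter, chr10:45470152-45470451 (minus strand): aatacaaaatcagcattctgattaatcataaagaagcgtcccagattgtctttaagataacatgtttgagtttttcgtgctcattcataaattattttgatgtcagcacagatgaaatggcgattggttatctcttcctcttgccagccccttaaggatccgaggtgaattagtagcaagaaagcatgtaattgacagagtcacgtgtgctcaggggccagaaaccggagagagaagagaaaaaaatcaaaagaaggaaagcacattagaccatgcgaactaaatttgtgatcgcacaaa
The Lin28b window lies inside the annotated gene, whose 5′ end on the minus strand is at 45486395. It therefore belongs to a start downstream of that end, and the sequence at the end itself is not shown. Those of Lin28a and Fgf5 each held 1 GC box and that of Lin28b held 0, a motif found on either strand in 35.7% of 32851 promoters of the same length. The promoter of Utf1, which was lower in slow/slow NPCs and PSA-NCAM+ cells, held 4, and those listed for Pou5f1 held 1 and 0. The octamer ATGCAAAT (reverse ATTTGCAT) was in none of the 5 genes' promoters and in 1.74% of all, and the E box CACGTG was in that of Lin28b and in 7.15% of all. No match of one motif overlapped a match of another in these promoters, and no factor's binding was measured.

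Along the differentiation path, the 8 genes split into those that rose and those that fell on leaving the ESC state. From ESCs to NPCs, 6 genes rose and 2 fell in WT cells, where 34% and 31.6% of all genes did, and 5 rose and 2 fell in slow/slow cells, where 33.9% and 28.4% did. Pou3f1 rose by 5.11 ± 0.31 and Utf1 by 4.57 ± 0.19 on the log2 scale in WT cells (edgeR FDR = 2.88e-11 and 1.38e-13), and Fgf5 by 6.73 ± 0.29 in slow/slow cells (edgeR FDR = 9.24e-14), from a level resting on 3 to 6 counts a library. Pou5f1 fell by 1.46 and Sall4 by 0.70 in WT cells (edgeR FDR = 1.07e-05 and 0.000172). Dppa4, up by 0.59 ± 0.15 in WT cells (edgeR FDR = 0.00211), had a log2 change of 0.30 ± 0.15 in slow/slow cells (edgeR FDR = 0.0951).

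From NPCs to PSA-NCAM+ cells, 1 gene rose and 6 fell in WT cells, where 21.8% and 19.5% of all genes did, and 1 rose and 5 fell in slow/slow cells, where 22.5% and 19.8% did. Lin28b was the gene that rose, by 0.88 ± 0.14 in WT and 0.51 ± 0.14 in slow/slow cells (edgeR FDR = 6.5e-05 and 0.00577). Utf1 fell by 1.56 and 1.53 (edgeR FDR = 1.05e-06 and 1.37e-06). Lin28a had a log2 change of -0.70 ± 0.25 in WT cells (edgeR FDR = 0.0319) and of 0.01 ± 0.25 in slow/slow cells (edgeR FDR = 0.986, and a change of 0.30 with an FDR of 0.0248 without the first libraries). In WT cells the calls on Pou5f1, Lin28a, Dppa4 and Fgf5 were each lost when some single NPC or PSA-NCAM+ library was left out, with FDRs up to 0.116, 0.160, 0.142 and 0.101 and changes as small as -0.51, -0.42, -0.25 and -0.47. In slow/slow cells the call on Sall4 was lost without the first NPC or first PSA-NCAM+ library (edgeR FDR = 0.0641 and 0.0764), and that on Pou3f1 without the first or second NPC library (0.148 and 0.0704) or the first or second PSA-NCAM+ library (0.145 and 0.0635).

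From NPCs to neurons, 2 genes rose and 5 fell in WT cells, where 41.4% and 38.9% of all genes did, while 0 rose and 8 fell in slow/slow cells, where 38.4% and 36.6% did. The genes that rose in WT cells were Fgf5 (1.93 ± 0.20) and Lin28b (1.46 ± 0.14). Pou5f1 fell by 2.95 in WT and 4.33 in slow/slow cells, and Dppa4 fell by 4.37 and 4.81. From ESCs to neurons, 4 rose and 4 fell in WT cells, where 43.4% and 39.4% of all genes did, and 3 rose and 5 fell in slow/slow cells, where 44% and 38.4% did. Lin28a made the difference in these counts, with a log2 change of 2.72 ± 0.27 from ESCs to neurons in WT cells (edgeR FDR = 8.08e-09) and of -0.74 ± 0.25 in slow/slow cells (edgeR FDR = 0.0113).

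Whether the genotype difference itself changed between stages was tested as an interaction, for which 69.1% of all genes and 7 of the 8 were called in at least 1 of the 4 pairs of stages. Between ESCs and NPCs it did for 1 gene upwards (Fgf5, 3.28 ± 0.43, edgeR FDR = 1.69e-05) and 1 downwards (Utf1), where 13.6% and 11% of all genes were called. Between NPCs and PSA-NCAM+ cells edgeR called 0 of the 8, where 7.52% of all genes were called higher and 7.04% lower, with 2 of the 8 at an unadjusted p under 0.05 and 1 called by DESeq2 (Dppa4). Without the first libraries 4 were called: Dppa4 (-0.63, edgeR FDR = 0.000169), Lin28a (0.71, edgeR FDR = 0.00116), Lin28b (-0.41, edgeR FDR = 0.0202) and Pou5f1 (-0.48, edgeR FDR = 0.0326). Over all genes tested, 5200 of 16746 were called without the first libraries and 3027 of 17031 by DESeq2, beside 2421 of 16627 in the main fit.

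Towards neurons the shift was mostly downwards. Against NPCs, 5 genes were called lower and 1 higher, where 30.4% and 24.7% of all genes were. Fgf5 shifted by -3.06 ± 0.28, Lin28a by -2.53 ± 0.36, Lin28b by -2.34 ± 0.20, Pou5f1 by -1.38 ± 0.32 and Sall4 by -0.96 ± 0.20, whereas Utf1 shifted by 0.95 ± 0.24 (edgeR FDR at most 0.00269). Against ESCs, 6 were called lower and 0 higher, where 21.6% and 20.5% of all genes were. Lin28a shifted by -3.45 ± 0.37, Lin28b by -2.23 ± 0.20, Pou5f1 by -1.19 ± 0.32, Utf1 by -1.01 ± 0.25, Dppa4 by -0.73 ± 0.23 and Sall4 by -0.64 ± 0.19 (edgeR FDR at most 0.0145). Both sets of values share the neuron libraries, so they are given side by side only.

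Upper-quartile scaling moved the median over all genes by 0.14 for slow/slow over WT in neurons, by -0.27 and -0.19 for WT neurons over WT NPCs and ESCs, and by 0.18 and 0.16 for the interactions of neurons against NPCs and ESCs. The 8 genes kept their direction in these comparisons, and the split of calls for slow/slow over WT in neurons went from 1 higher and 4 lower to 2 higher and 3 lower, since Pou3f1 was then called (0.61, edgeR FDR = 0.0477) and Fgf5 was not (-0.38, edgeR FDR = 0.107). In PSA-NCAM+ cells it gave 3 higher and 3 lower, and DESeq2 size factors gave 5 higher and 2 lower. For slow/slow NPCs over ESCs upper-quartile scaling gave 6 higher and 1 lower.

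The 8 genes were set beside lists of related genes, chosen with earlier results of these data known and so not independent of them. Of 9 core network partners of Pou5f1, 0 were higher and 2 lower in slow/slow ESCs, 3 and 3 in NPCs, 3 and 5 in PSA-NCAM+ cells, with and without the first libraries, and 5 and 0 in neurons. Nanog, a homeobox factor of the naive state, averaged 384 ± 3.31 CPM in WT NPCs against 128 ± 11.96 CPM in slow/slow NPCs (SD, n = 3; log2 change -1.58 ± 0.14, edgeR FDR = 3e-08), where Pou5f1 was not called. Sox2, the partner of Oct4 on DNA, had a log2 change of -0.24 ± 0.09 in ESCs (edgeR FDR = 0.0449). Dppa3 was lower in slow/slow NPCs (-2.34 ± 0.23, edgeR FDR = 9.97e-08) and higher in slow/slow neurons (3.44 ± 0.37, edgeR FDR = 2.71e-07), where its level was 0.362 CPM against 0.0306 in WT.

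Of 9 naive factors found, 8 were lower and 0 higher in slow/slow NPCs, with a median log2 change of -1.24, where the median of the 8 genes was 0.52. In PSA-NCAM+ cells 7 were lower and 0 higher (8 and 1 without the first libraries), in ESCs 2 and 2, and in neurons 1 lower and 4 higher. Tbx3, a T-box factor, went from 191 ± 13.4 CPM in WT to 31.9 ± 3.12 CPM in slow/slow NPCs (SD, n = 3; log2 change -2.58 ± 0.23, edgeR FDR = 2.08e-08), and Prdm14 fell by 2.40 (edgeR FDR = 8.48e-07). In neurons Klf2 was higher by 1.50 ± 0.23 and Zfp42 by 1.53 ± 0.14 (edgeR FDR = 1.46e-05 and 2.01e-08), at 6.04 and 7.90 CPM in slow/slow cells.

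Of 12 other formative and primed genes, 10 were higher and 0 lower in slow/slow NPCs (median log2 change 1.20), 8 and 1 in PSA-NCAM+ cells (8 and 2 without the first libraries), 6 and 1 in ESCs, and 5 and 4 in neurons. Lef1, a factor of Wnt signalling, went from 1.22 ± 0.19 CPM in WT NPCs to 71.3 ± 2.86 CPM in slow/slow NPCs (SD, n = 3; log2 change 5.86 ± 0.47, edgeR FDR = 5.27e-09). Sox3, also a neural factor, rose by 3.44 ± 0.41 there (edgeR FDR = 9.15e-07). T, the mesoderm factor Brachyury, was higher in slow/slow ESCs (1.84 ± 0.20, edgeR FDR = 3.56e-07) and lower in slow/slow neurons (-3.46 ± 0.19, edgeR FDR = 4.3e-11), where 4 mesoderm markers summed to 75.8 to 100.0 CPM in WT and 8.76 to 10.9 CPM in slow/slow libraries. T is itself 1 of these 4, at means of 76.8 and 6.97 CPM, so the sum mostly restates it. Mixl1, Eomes and Mesp1 averaged 6.49, 4.92 and 0.492 CPM in WT and 0.401, 2.55 and 0.0731 CPM in slow/slow neurons.

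**Figure D4:**
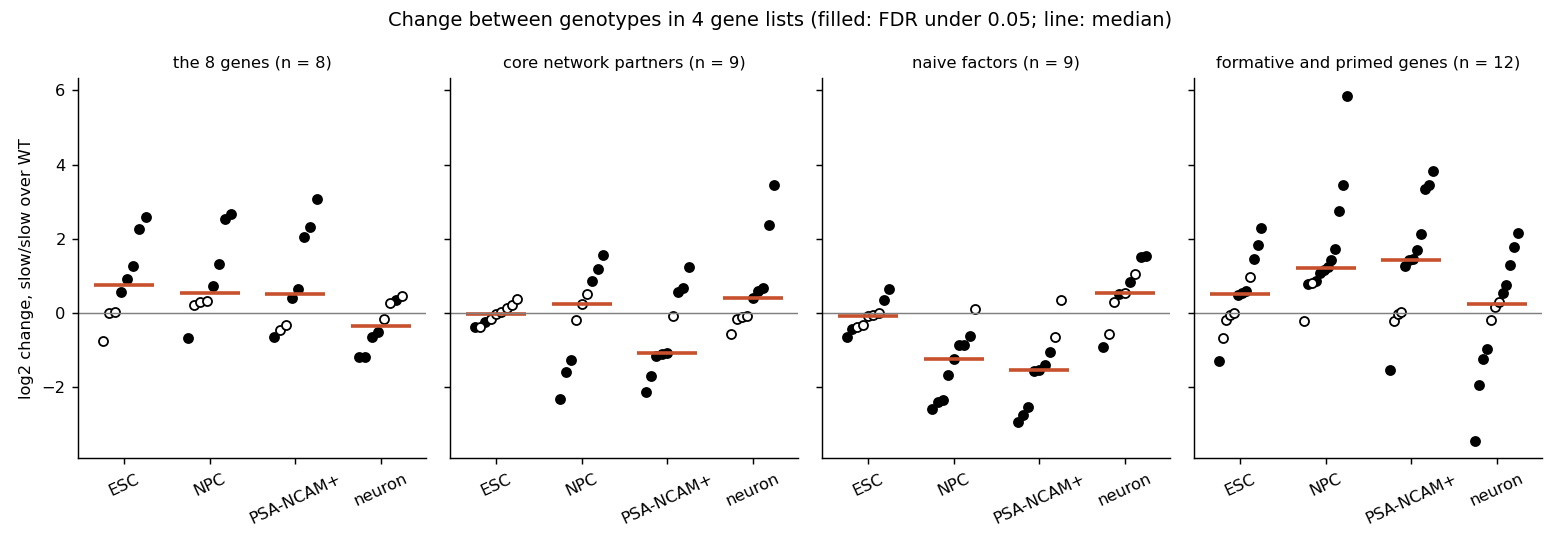
Log2 change of slow/slow over WT at each stage for the 8 genes and for 3 lists (9 core network partners, 9 naive factors, 12 formative and primed genes), with points for genes (filled where the edgeR FDR was under 0.05) and lines for medians. In NPCs the naive factors lay at a median of -1.24 and the formative genes at 1.20, on either side of the 8 genes at 0.52.

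Around Fgf5, of 12 other FGF ligands, receptors and targets 7 were higher and 2 lower in slow/slow NPCs. The counts were 6 and 2 in PSA-NCAM+ cells (8 and 3 without the first libraries), 2 and 4 in ESCs, and 6 and 6 in neurons. Fgf15, a ligand of the neural tube, went from 1.33 ± 0.15 CPM in WT NPCs to 60.4 ± 8.85 CPM in slow/slow NPCs (SD, n = 3; log2 change 5.49 ± 0.39, edgeR FDR = 1.13e-09), and Fgf8 rose by 2.75 ± 0.29 (edgeR FDR = 1.67e-07). Fgf8 was lower in slow/slow neurons (-1.94 ± 0.27, edgeR FDR = 7.17e-06). Spry4, a feedback inhibitor of FGF signalling, was higher in slow/slow ESCs (2.23 ± 0.18, edgeR FDR = 1.29e-08).

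Of 8 other POU genes beside Pou5f1 and Pou3f1, 6 were higher and 1 lower in slow/slow NPCs. The counts were 7 and 1 in PSA-NCAM+ cells, with and without the first libraries, 2 and 1 in ESCs, and 4 and 0 in neurons. Pou3f2 (Brn2), a neural factor close to Pou3f1, went from 0.0698 ± 0.031 CPM in WT NPCs to 1.45 ± 0.914 CPM in slow/slow NPCs (SD, n = 3; log2 change 4.35 ± 0.60, edgeR FDR = 5.88e-06), and rose by 1.96 ± 0.35 in neurons (edgeR FDR = 0.000107). Pou4f2 was higher in slow/slow ESCs, at 13.7 ± 1.63 against 0.801 ± 0.134 CPM (log2 change 4.11 ± 0.29, edgeR FDR = 1.6e-09). Of 4 nuclear receptors known to act on Pou5f1, 0 were called in ESCs, 2 were higher and 1 lower in NPCs, and 3 higher and 1 lower in PSA-NCAM+ cells, with and without the first libraries, and in neurons. Nr2f1 rose by 2.73 ± 0.22 and Nr2f2 by 1.42 ± 0.14 in slow/slow NPCs (edgeR FDR = 5.61e-09 and 1.25e-07).

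Over the 24 libraries, which share stage and genotype, the pairs of the 8 genes differed widely in likeness of log2 CPM. Pearson's r was 0.972 for Pou5f1 and Sall4, 0.929 for Sall4 and Dppa4, 0.835 for Lin28b and Fgf5, 0.821 for Fgf5 and Pou3f1, 0.796 for Lin28a and Lin28b, and -0.598 for Pou5f1 and Fgf5. Among 11494 genes with a mean of at least 5 CPM, the genes most like each were Rps4y2 (0.992) and Etv5 (0.991) for Pou5f1, Mthfd1 (0.992) and Etv5 (0.985) for Sall4, and B3gnt7 (0.963) and Myo7a (0.962) for Utf1. For Dppa4 they were Tanc1 (0.983) and Gm13247 (0.981), for Lin28a Hook1 (0.951) and Acsl4 (0.949), and for Lin28b Atxn1l (0.957) and Nsmaf (0.946). For Fgf5 they were Hecw2 (0.960) and Hoxb1 (0.952), and for Pou3f1 Syde1 (0.970) and Ankrd6 (0.968).

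Splicing of the 8 genes was read from the deposited table of percent spliced in (PSI). Of 42 events listed in them, 26 passed the coverage and quality filters in all 6 libraries of some stage, which gave 82 event and stage pairs. None of the 82 differed by over 10 points between genotypes, where 0.952% of all 528650 such pairs did. The largest difference was 4.44 points, in an alternative splice site of Dppa4 in PSA-NCAM+ cells, with PSI of 95.8, 85.8 and 86.4 in WT and 84.98, 93.7 and 76.1 in slow/slow libraries. The groups overlapped, and the exact permutation test gave p = 0.4, where the smallest p this design allows is 0.10. Between stages of WT cells no event moved by over 10 points either, and the widest range was 6.82 points. An intron each of Dppa4, Lin28a and Lin28b passed at a single stage, so no range between stages could be seen for it. No event of Dppa4 passed in neurons. No event of Fgf5 passed of 3 listed, and none was listed for Pou3f1.

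Reads from opposite-strand genes could bear on 4 of the 8: Gm19553 overlaps Pou5f1, Gm14261 Sall4, Gm13061 Lin28a and Gm2164 Pou3f1 in the annotation, and none of these 4 had a row in the table. The library kit keeps strand, but whether counting used it is not given in the sources used here.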

How the data were processed

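Poly-A selected RNA of 24 mouse cell samples was sequenced with a stranded library kit and aligned to mm9 (submitters' notes and study methods: bcl2fastq 2.17.1.14, edgeR, vast-tools 1). The authors deposited raw counts per gene and mean RPKM per group, with their own fold changes, log2 values and p-values, which were not used, nor was a table of their splicing comparisons. The deposited vast-tools table gives percent spliced in (PSI) per event with quality scores. In the expression table, 1114 of 22667 rows had no values. Totals of 32974432 to 104466886 counts per sample set the counting error, which covers sampling only.

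Counts were filtered by group and tested in 1 model of 8 groups (16 residual degrees of freedom, 16 contrasts) with edgeR 4.0.16 in R 4.3.3: TMM scaling, quasi-likelihood F test and Benjamini-Hochberg adjustment over 16627 genes. Levels are TMM-scaled CPM. On simulated counts for slow/slow over WT ESCs, 84.4% of genes changed by 1 on the log2 scale and 99.0% of those changed by 2 were recovered. All other genes were simulated without a change between groups, unlike these data, so these shares do not carry over to the 8 genes. p-values rest on the spread between the 3 samples of a group, estimated for each gene over all 8 groups together. A wide spread at 1 stage therefore enters the p-values of the others. Alternatives were DESeq2 1.42.0 (Wald test and size factors), upper-quartile scaling, no filter, a replicate block, only the groups compared, and each library left out. Leaving out the first PSA-NCAM+ libraries and a block among PSA-NCAM+ libraries were added after seeing the data.

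Replicate numbers were taken to pair samples where all 3 same-numbered pairs of deviations from the group means correlated above 0.1. That held for WT and slow/slow PSA-NCAM+ cells (0.462 to 0.593) and for slow/slow PSA-NCAM+ cells and NPCs (0.174 to 0.361), and for no other comparison.

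The 8 genes and all lists were chosen with earlier results of these data known. All 8 are named, and of each list at most 2 genes per stage, those called with the largest change. Likeness used log2(CPM + 1) over genes with a mean of at least 5 CPM. PSI events needed enough coverage in every library of a stage and, for introns, at least 15 reads and a balance p above 0.05, and were compared with an exact permutation test (scipy 1.17.1, Python 3.11.15). Positions, 3′ UTRs and let-7 sites came from GENCODE vM21 (GRCm38), and microRNA and promoter sequences from RefSeq (GRCm38.p6). PSI coordinates (mm9) were not mixed with them.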

Additional observations from a re-analysis of the deposited data

Results flagged for a closer look

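For 7 of the 8 genes the genotype difference itself differed between stages in at least 1 of edgeR's 4 interaction tests, where 69.1% of all genes tested did. The values are log2 changes of slow/slow over WT at the later stage minus those at the earlier one. Between ESCs and NPCs Utf1 differed by -1.96, from higher to lower in slow/slow cells, and Fgf5 by 3.28, from a level of a few counts in ESCs. Between NPCs and neurons Fgf5 differed by -3.06, Lin28a by -2.53, Lin28b by -2.34, Pou5f1 by -1.38 and Sall4 by -0.96, and Utf1 by 0.95. Between ESCs and neurons Lin28a differed by -3.45, Lin28b by -2.23, Pou5f1 by -1.19, Utf1 by -1.01, Dppa4 by -0.73 and Sall4 by -0.64. The neuron libraries enter both of the last comparisons, and the part of cell state, cell line and plating density in these differences was not tested.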

How the results depend on the processing

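The limits are those of 3 samples a group, a single line of each genotype and first PSA-NCAM+ libraries that stand apart. Fgf5 and Pou3f1 in ESCs rest on few counts. Over the 128 gene and comparison pairs, the call and direction were the same in 123 with DESeq2's Wald test, 125 with its size factors, 127 without the filter, 115 with upper-quartile scaling, 122 with the replicate block and 108 of 127 with only the groups compared (1 could not be fitted).

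The replicate block kept the number of genes called within 1.5 times in all comparisons but 1: for the interaction of PSA-NCAM+ cells against NPCs it called 1 gene in place of 0. Over all 16627 genes, calls in that interaction went from 2421 to 2469. Where numbers did not pair the samples, ESC deviations of same-numbered libraries correlated at -0.259 to 0.398, NPC ones at -0.176 to -0.0419 and neuron ones at -0.105 to -0.0120. The block among PSA-NCAM+ libraries called 8 genes in place of 6 for slow/slow over WT there. Calls over all 16627 genes rose with it from 9424 to 11216.

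With only the groups compared, 8 genes in place of 5 were called in NPCs, 3 in place of 6 in PSA-NCAM+ cells, 4 in place of 7 for WT PSA-NCAM+ cells over NPCs, and 5 in place of 2 for the interaction of NPCs against ESCs. Calls over all genes moved the same way. They went, in this order, from 9423, 9424, 6862 and 4091 of 16627 to 11600 of 15299, 3641 of 15660, 5394 of 15512 and 7534 of 15626. The interaction of PSA-NCAM+ cells against NPCs gave 1 with DESeq2 and 4 without the first libraries or with their block, in place of 0. Over all genes it gave 3027 of 17031, 5200 of 16746 and 5165 of 16627, in place of 2421 of 16627. Leaving out single libraries gave 4 to 5 calls in ESCs, 4 to 6 in NPCs, 5 to 6 in PSA-NCAM+ cells, 3 to 5 in neurons, 4 to 7 for WT and 4 to 6 for slow/slow PSA-NCAM+ cells over NPCs, 6 to 7 for slow/slow NPCs over ESCs and for WT neurons over NPCs, and 0 to 2 for the interaction of PSA-NCAM+ cells against NPCs. The causes were not tested.

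Directions turned only for changes that were called neither before nor after. Pou5f1 in ESCs was -0.00661 with upper-quartile scaling and -0.0510 to 0.116 (also -0.0289 and -0.000535) with a library left out. Sall4 in ESCs was 0.00786 with only the groups compared and -0.0139 to 0.0248 (also 0.000432) with a library left out. Lin28a for slow/slow PSA-NCAM+ cells over NPCs was -0.0595 with upper-quartile scaling, -0.0336 with the block, -0.0829 with the block among PSA-NCAM+ libraries and -0.154 to 0.321 (also -0.117 and -0.000137) with a library left out, while Fgf5 there ranged from -0.161 to 0.0616. In the interaction of PSA-NCAM+ cells against NPCs, leaving out a library gave -0.0263 to 0.260 for Sall4 (also -0.0203), -0.166 to 0.201 for Utf1 (also -0.0133 and -0.00433), and -0.379 to 0.224 for Pou3f1 (also 0.0442 and 0.156).

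Calls also moved for single genes. With only the groups compared, calls were gained in NPCs for Pou5f1 (FDR = 0.0100), Sall4 (0.000778) and Dppa4 (0.00137), in neurons for Pou3f1 (9.37e-05), for Dppa4 in slow/slow NPCs over ESCs (0.000522), for Sall4 (0.0272), Lin28a (2.11e-08) and Dppa4 (0.00350) in the interaction of NPCs against ESCs, and for Dppa4 in that of neurons against NPCs (0.0120). They were lost in PSA-NCAM+ cells for Utf1 (0.0527), Sall4 (0.218) and Pou3f1 (0.281), in WT PSA-NCAM+ cells over NPCs for Lin28a (0.0868), Dppa4 (0.100) and Fgf5 (0.0901), and in slow/slow ones for Sall4 (0.102) and Pou3f1 (0.112). Lin28a in WT neurons over NPCs was gained in 5 settings (2.01e-06 to 0.0432), and in the interaction of NPCs against ESCs also with DESeq2 (0.0296) and its size factors (0.0497). In PSA-NCAM+ cells Pou5f1 was gained with the replicate block (0.0491), DESeq2 (0.0480) and upper-quartile scaling (0.0465), and Dppa4 with DESeq2 (0.0480), its size factors (0.0488) and upper-quartile scaling (0.0345). The replicate block gained Sall4 in NPCs (0.0399) and Pou3f1 in WT PSA-NCAM+ cells over NPCs (0.0475, and 4.51e-05 with the block among PSA-NCAM+ libraries), and in the interaction of PSA-NCAM+ cells against NPCs Dppa4 (0.0422), which DESeq2 also called (0.0414). The block among PSA-NCAM+ libraries called Pou5f1 (0.00811), Lin28a (0.00147), Lin28b (0.0359) and Dppa4 (0.00024) in that interaction. Upper-quartile scaling gained Dppa4 in slow/slow NPCs over ESCs (0.0496) and lost Sall4 there (0.0506), Sall4 (0.0514) and Pou3f1 (0.0574) in PSA-NCAM+ cells, and Sall4 (0.0563) and Dppa4 (0.0571) in the interaction of neurons against ESCs. Without the filter Lin28b in neurons was lost (0.0553).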
